A study of Mus musculus with 9 samples.

Results

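The 7 genes described here serve the homing of lymphocytes to lymph nodes and the building of those nodes: Ccr7, Cxcr5, Ltb, Lta, Ccl19, Cxcl13 and Madcam1. They were taken by symbol from the rows of an array table that carry a single gene symbol, and the row with the highest mean stood for each gene, so that 7 of 19938 genes were followed. The study measured RNA of mammary epithelial cell preparations from wild-type C3H female mice aged 8 to 9 weeks, released from fat tissue with collagenase, on 9 Affymetrix whole-transcript arrays. The untrypsinized group (3 arrays) had met collagenase only, the trypsinized group (3 arrays) was then digested with trypsin, and the mock sorted group (3 arrays) was digested with trypsin and then passed through a mock fluorescence-activated cell sort. Arrays carry replicate numbers 1 to 3 and the word biological in the labels, with no animals named, and a p-value therefore covers the spread among these arrays only, part of which may be technical.

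CCR7 is the receptor that leads T cells, naive B cells and mature dendritic cells into the T zone of lymph nodes, along the chemokine CCL19 and its relative CCL21. CXCR5 leads B cells and follicular helper T cells towards CXCL13, which is made by stromal cells of the follicle and also by some macrophages. Lymphotoxin alpha and beta, made largely by lymphocytes, act on stromal cells through the lymphotoxin beta receptor and NF-kB and keep the node organised, and MAdCAM-1 is an endothelial adhesion molecule for lymphocytes that carry the integrin alpha4 beta7. Ccr7, Cxcr5, Ltb and Lta are therefore read here as genes of the lymphocyte side, and Ccl19, Cxcl13 and Madcam1 as genes of the stromal side. These labels do not tell which cells made the RNA in these preparations. The question put to the data was whether both sides were seen together, and how replicate 1 compared with replicates 2 and 3.

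RefSeq promoters (GRCm38.p6, 250 bases before to 50 bases after the annotated start) were matched for 5 of the 7 genes. Those of Ltb and Madcam1 are shown because both genes were called changed between preparations and share an exact kB element. That of Cxcl13 is shown as a stromal chemokine whose window lacks those exact letters. The Ltb window lies at chr17:35194257-35194556 on the plus strand, the Madcam1 window at chr10:79664309-79664608 on the plus strand and the Cxcl13 window at chr5:95956689-95956988 on the plus strand. Capitals mark a 10-letter kB element in Ltb and Madcam1, whose letters were searched on both strands, and TATAAA in Cxcl13, searched on the gene's strand. The letters to search were chosen after the promoters had been read.
Ltb: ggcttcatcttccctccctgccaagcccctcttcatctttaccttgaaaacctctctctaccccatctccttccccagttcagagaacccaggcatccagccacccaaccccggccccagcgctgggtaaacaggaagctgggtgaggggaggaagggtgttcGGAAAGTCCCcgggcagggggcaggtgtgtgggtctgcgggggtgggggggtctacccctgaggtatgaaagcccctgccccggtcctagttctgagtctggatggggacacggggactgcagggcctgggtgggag
Madcam1: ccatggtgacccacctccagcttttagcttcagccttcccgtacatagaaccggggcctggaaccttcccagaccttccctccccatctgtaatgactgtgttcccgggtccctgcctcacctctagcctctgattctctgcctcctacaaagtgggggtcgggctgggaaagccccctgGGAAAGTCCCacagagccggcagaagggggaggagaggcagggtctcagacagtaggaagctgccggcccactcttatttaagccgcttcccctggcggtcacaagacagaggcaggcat
Cxcl13: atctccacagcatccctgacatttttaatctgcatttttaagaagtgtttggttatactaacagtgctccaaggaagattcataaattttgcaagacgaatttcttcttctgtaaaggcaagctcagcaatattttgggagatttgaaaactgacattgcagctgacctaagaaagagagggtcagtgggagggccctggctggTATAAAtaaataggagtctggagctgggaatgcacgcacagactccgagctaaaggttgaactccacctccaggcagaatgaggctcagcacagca
The kB element began 87 bases before the start in Ltb and 70 bases before it in Madcam1, and 51 of 32851 promoter windows of this length held it (0.155%). The TATAAA element began 46 bases before the start in Cxcl13 and 167 bases before it in Lta, and 8.32% of all windows held it. The windows of Lta, Ccl19 and Cxcl13 did not hold the kB letters. Such a match describes the sequence and is not evidence of a site in use.

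The deposited values are linear intensities, and levels below are log2 of the intensity plus 1, with differences as log2 differences of group means from limma (standard error, SE; n = 3 arrays per group). A gene was called changed at a Benjamini-Hochberg adjusted p of 0.05 or below over all 19938 genes and a fold of at least 1.5. Median intensity was 345 to 408 per array. The 1027 olfactory receptor genes, taken as genes not known to be used by these cells, had a median level of 6.62 and a 95th percentile of 8.20, and no detection call was used. Luminal epithelial markers such as Epcam and Krt8 had list medians of 13.19 to 13.39 on all arrays, and the preparations also held vascular endothelial, T cell and B cell markers. Trypsinized replicate 1 and mock sorted replicate 1 stood apart in their lymphocyte markers: the summed intensity of 13 T cell markers was 16860 and 15516 there, against 6686 to 8277 on the other 4 trypsinized and mock sorted arrays and 4168 to 5131 on the untrypsinized arrays. For Ccr7, Cxcr5, Ltb, Ccl19 and Cxcl13 the difference after trypsin is also given without trypsinized replicate 1.

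**Figure D1:**
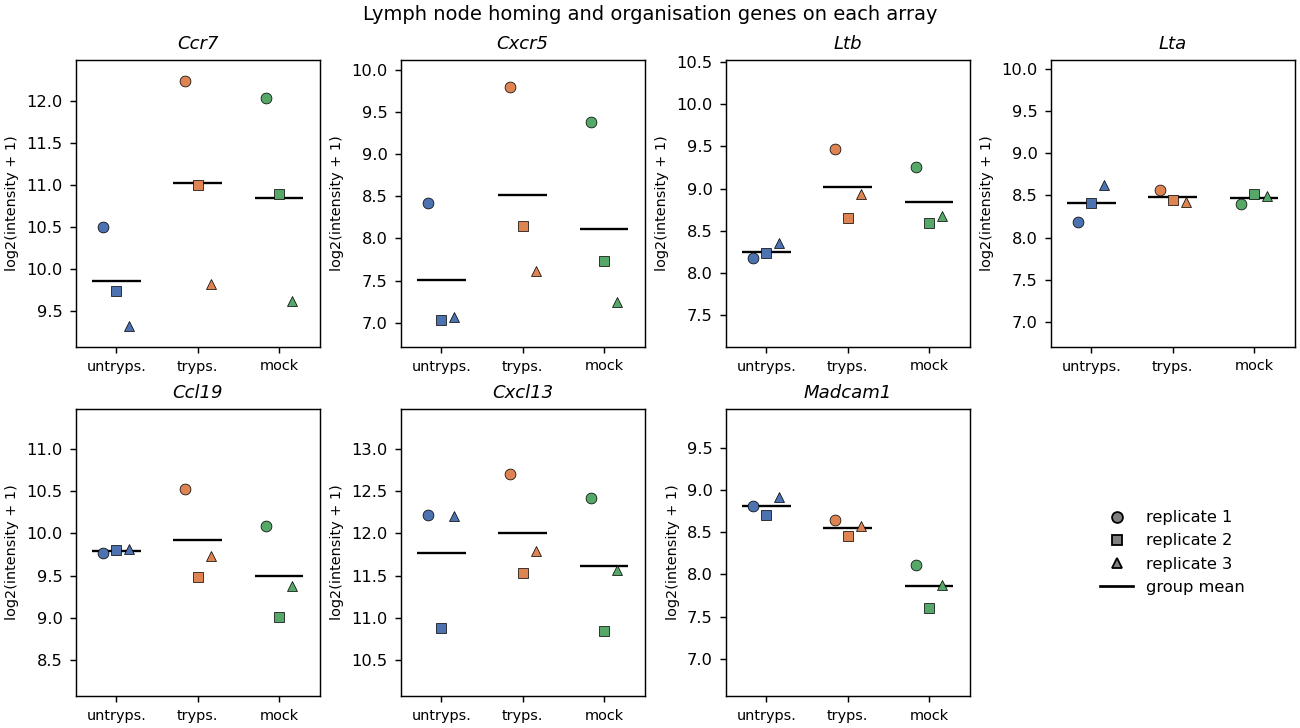
Level of each gene on each of the 9 arrays, as log2(intensity + 1), by preparation (untryps., untrypsinized; tryps., trypsinized; mock, mock sorted). Symbols give the replicate number and bars the group mean, and every panel spans the same log2 range. Replicate 1 is the highest trypsinized and mock sorted array for each gene except Lta, which is highest in replicate 1 of the trypsinized arrays only.

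Ccr7, the T zone homing receptor, was at 10.50, 9.74 and 9.33 in untrypsinized replicates 1, 2 and 3, at 12.23, 11.00 and 9.83 in the trypsinized ones and at 12.03, 10.89 and 9.62 in the mock sorted ones. Replicate 1 was the highest array and replicate 3 the lowest in each preparation, and the groups overlapped. The span over the 9 arrays was 7.44-fold, and the SD within the trypsinized group was 1.20. Trypsinized and untrypsinized means differed by 1.16 (SE 0.72, 95% interval -0.50 to 2.82, adjusted p = 0.265), and by 0.56 with trypsinized replicate 1 dropped (SE 0.70, limma adjusted p = 0.612). Mock sorted and trypsinized means differed by -0.17 (SE 0.72, adjusted p = 0.940), and each mock sorted array lay 0.11 to 0.21 below the trypsinized array of its number. Mock sorted and untrypsinized means differed by 0.99 (SE 0.72, adjusted p = 0.303), and by 0.40 with mock sorted replicate 1 dropped. Its mock sorted minus trypsinized difference was 0.43 when trypsinized replicate 1 was dropped and 0.44 when mock sorted replicate 3 was dropped, each of which breaks a same-numbered pair, and -0.16 when both arrays numbered 1 were dropped.

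Cxcr5, the follicle homing receptor, was at 8.42, 7.04 and 7.07 in untrypsinized replicates 1 to 3, at 9.79, 8.15 and 7.62 in trypsinized ones and at 9.38, 7.73 and 7.24 in mock sorted ones. Replicate 1 again gave the highest array of each preparation, and the groups overlapped. Only untrypsinized, trypsinized and mock sorted replicate 1 lay above the 95th percentile of the olfactory receptor genes, so the gene may not be above background on the other 6 arrays. Its trypsinized minus untrypsinized difference was 1.01 (SE 0.72, adjusted p = 0.326), and 0.37 with trypsinized replicate 1 dropped (SE 0.67, limma adjusted p = 0.732). Its mock sorted minus trypsinized difference was -0.40 (SE 0.72, adjusted p = 0.832), in a fit that does not pair arrays by number. Over the 26 alternatives for this difference, limma's adjusted p went down to 0.0166, and Cxcr5 was not called. The same-numbered mock sorted and trypsinized arrays of Cxcr5 differed by -0.41, -0.42 and -0.38, nearly equal in each pair and under the minimum fold. Mock sorted minus untrypsinized was 0.61 (SE 0.72, adjusted p = 0.525), and -0.03 without mock sorted replicate 1.

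Ltb, the membrane-bound lymphotoxin chain, was at 8.17, 8.23 and 8.35 in untrypsinized replicates 1 to 3, at 9.47, 8.66 and 8.94 in trypsinized ones and at 9.26, 8.60 and 8.68 in mock sorted ones. Every trypsinized and every mock sorted array exceeded every untrypsinized array. It rose by 0.77 after trypsin (SE 0.23, 1.71-fold, limma adjusted p = 0.0395), and it was the 1 of 7 genes called in that comparison, in which 1.46% of all genes were called and 0.532% were called higher. Groups that do not overlap, with the trypsinized group higher, were seen in 25.0% of all genes, and with the mock sorted group above the untrypsinized one in 28.7%. The untrypsinized levels lay at or near the 95th percentile of the olfactory receptor genes, so the fold may be understated. The call was lost without untrypsinized replicate 1, 2 or 3, trypsinized replicate 1 or 3, or mock sorted replicate 3, with limma adjusted p-values of 0.0544 to 0.105, and the rise was 0.54 without trypsinized replicate 1. Ltb differed by -0.18 between mock sorted and trypsinized arrays (SE 0.23, adjusted p = 0.753) and by 0.59 between mock sorted and untrypsinized arrays (SE 0.23, adjusted p = 0.0698). The last was called without trypsinized replicate 1 (adjusted p = 0.0336), and was 0.38 without mock sorted replicate 1 (limma adjusted p = 0.180).

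Lta, the soluble lymphotoxin chain and a neighbour of Tnf and Ltb on chromosome 17, was at 8.18, 8.41 and 8.63 in untrypsinized replicates 1 to 3, at 8.56, 8.45 and 8.42 in trypsinized ones and at 8.40, 8.52 and 8.49 in mock sorted ones. These levels were close to the 95th percentile of the olfactory receptor genes, and the groups overlapped. The 3 differences were 0.07, -0.01 and 0.06 (SE 0.10 each) for trypsinized against untrypsinized, mock sorted against trypsinized and mock sorted against untrypsinized arrays, with adjusted p-values of 0.635, 0.981 and 0.650. Their 95% intervals ran from -0.24 to 0.31 and so left out the size of the Ltb rise. The signs turned with the scaling of arrays and with single arrays. In replicate 1 of the trypsinized arrays Lta was 0.13 above the mean of the other replicates, against 0.68 for Ltb.

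**Figure D2:**
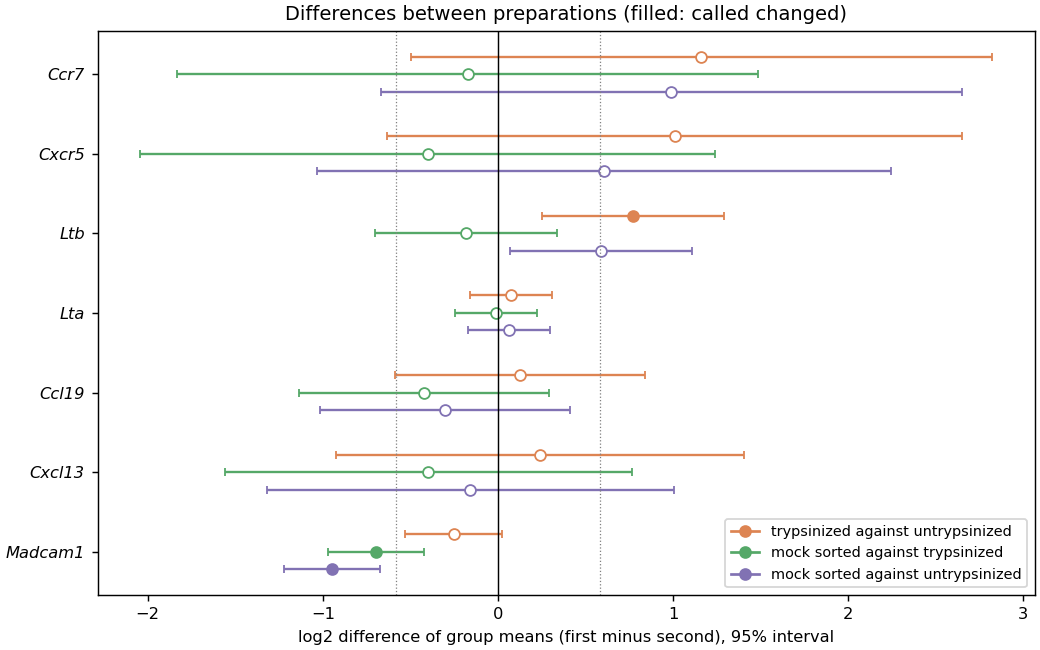
Difference of group means of each gene in the 3 comparisons (horizontal axis, log2) with its 95% interval from limma. Filled points were called changed, open points were not, and dotted lines mark 1.5-fold. Ltb was called higher in trypsinized than untrypsinized arrays, and Madcam1 lower in mock sorted arrays than in each other group.

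Ccl19, the T zone chemokine for CCR7, was at 9.77, 9.80 and 9.81 in untrypsinized replicates 1 to 3, at 10.53, 9.49 and 9.73 in trypsinized ones and at 10.09, 9.01 and 9.38 in mock sorted ones. The untrypsinized arrays were nearly equal (SD 0.02), while the trypsinized and the mock sorted arrays spread widely (SD 0.55 and 0.54) with replicate 1 highest. The annotation gives this symbol to 5 rows, and 2 of them hold equal values on all 9 arrays and the others differ from these by at most 0.12, so the rows may share probes and near-identical gene copies cannot be told apart. Trypsinized minus untrypsinized was 0.12 (SE 0.31, adjusted p = 0.797), and -0.18 without trypsinized replicate 1. Mock sorted minus trypsinized was -0.42 (SE 0.31, adjusted p = 0.559), in a fit that does not pair arrays by number. The same-numbered differences were -0.45, -0.47 and -0.35, alike in each pair and under the minimum fold. Over the 26 alternatives for this difference, limma's adjusted p went down to 0.0227, and Ccl19 was not called. Mock sorted minus untrypsinized was -0.30 (SE 0.31, adjusted p = 0.467). With trypsinized replicate 1 and mock sorted replicate 1 left out, Ccl19 was called lower in mock sorted than untrypsinized arrays, by -0.60 (SE 0.12, adjusted p = 0.0120).

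Cxcl13, the follicle chemokine for CXCR5, was at 12.22, 10.88 and 12.21 in untrypsinized replicates 1 to 3, at 12.70, 11.53 and 11.79 in trypsinized ones and at 12.42, 10.85 and 11.56 in mock sorted ones. Replicate 2 was the lowest array of every preparation, and untrypsinized replicates 1 and 3 were almost equal. The groups overlapped fully. Its differences were 0.24, -0.40 and -0.16 (SE 0.51 each; adjusted p = 0.756, 0.758 and 0.823) for trypsinized against untrypsinized, mock sorted against trypsinized and mock sorted against untrypsinized arrays. The 95% interval of the first, -0.92 to 1.40, spans changes of more than 1.5-fold in either direction, so a change of that size was not detectable here. The first difference was -0.11 without trypsinized replicate 1 and -0.20 without untrypsinized replicate 2.

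Madcam1, the endothelial addressin, was at 8.81, 8.71 and 8.92 in untrypsinized replicates 1 to 3, at 8.64, 8.46 and 8.57 in trypsinized ones and at 8.11, 7.60 and 7.87 in mock sorted ones. The 3 groups did not overlap, and the mock sorted arrays were the lowest. Mock sorted arrays lay wholly below trypsinized ones in 14.3% of all genes and wholly below untrypsinized ones in 23.4%. Mock sorted arrays lay below trypsinized ones by 0.69 (SE 0.12, log2 change -0.69, limma adjusted p = 0.0135), and this fall was the 1 call among the 7 genes in a comparison in which 1.19% of all genes were called and 1.17% were called lower. Dropping trypsinized replicate 1, trypsinized replicate 3 or mock sorted replicate 3 ended the call (limma adjusted p = 0.0587, 0.0574 and 0.0540), and with mock sorted replicate 2 dropped the change of -0.56 was under the minimum fold. From untrypsinized to mock sorted arrays Madcam1 fell by 0.95 (SE 0.12, 1.93-fold, limma adjusted p = 0.000583), again the 1 of 7 genes called, with 4.47% of all genes called and 3.4% called lower. That call was kept under all 25 alternatives run, with limma adjusted p-values up to 0.0286. The trypsinized minus untrypsinized difference was -0.25 (SE 0.12, adjusted p = 0.152), with every trypsinized array below every untrypsinized one, as in 19.4% of all genes. The mock sorted levels were below the 95th percentile of the olfactory receptor genes, so the size of the fall may be understated. In these bulk preparations fewer cells of a type and less RNA per cell cannot be told apart.

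Over the 7 genes the median difference was 0.24, -0.40 and 0.06 in the 3 comparisons, beside 0.04, 0.00 and 0.05 over all genes. The 3 comparisons share arrays, so their values are set side by side and not related to each other.

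Other genes of homing were described with a list of 16, of which 14 had a row and the others were not analysed here. After trypsin 0 of 14 passed, limma's unadjusted p was under 0.05 for 5 higher and 2 lower genes, and the list median was 0.32. The share of all genes under that unadjusted cut was not counted. With no minimum fold, 5055 of 19938 genes passed even the adjusted cut after trypsin, 2766 higher and 2289 lower. Counts at the unadjusted cut, here and in the lists below, are therefore not read as results about a list. Selplg, the ligand of P-selectin, differed by 0.77 (SE 0.26, limma adjusted p = 0.0584) and Itgal, the alpha chain of the integrin LFA-1, by 0.69 (SE 0.24, limma adjusted p = 0.0651). Both passed once mock sorted replicate 1 was dropped (adjusted p = 0.0409 and 0.0372), which leaves their differences unchanged. With arrays left out the differences ran from 0.46 to 1.01 for Selplg and from 0.44 to 0.84 for Itgal, so the lower ends were under the minimum fold. Ackr4, a scavenger receptor for CCL19 and CCL21, lay 0.55 lower after trypsin (log2 difference -0.55, SE 0.05, limma adjusted p = 0.000595), just under the minimum fold. Between mock sorted and untrypsinized arrays 3 of 14 were called lower and 0 higher. These were Ackr4 at -0.80 (SE 0.05), the chemokine gene Cxcl12 at -0.64 (SE 0.07) and S1pr1, the receptor that lymphocytes use to leave nodes and that vessels use too, at -1.21 (SE 0.26), the last named after its values were seen and not called with all arrays numbered 2, or all numbered 3, dropped (limma adjusted p up to 0.108).

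In the lymphotoxin receptor pathway 15 of 17 listed genes had a row. After trypsin 1 was called, the cytokine gene Tnf, which rose by 0.73 (SE 0.05, limma adjusted p = 0.000213), and the list median was 0.13. Nfkb2, which encodes the p100 precursor of the non-canonical NF-kB factor, was 0.39 higher (SE 0.05, limma adjusted p = 0.00147), the kinase gene Map3k14 0.25 higher (SE 0.06, limma adjusted p = 0.0193) and Relb, the partner of processed p100, 0.16 higher (SE 0.05, limma adjusted p = 0.0345), all under 1.5-fold. The receptor gene Ltbr, named for its role outside the rule, was at 10.85 to 10.88 in untrypsinized, 10.69 to 10.77 in trypsinized and 10.65 to 10.82 in mock sorted arrays. Tnf differed from Ltb and Ccr7 in its pattern over arrays: its trypsinized levels were 11.05, 11.03 and 11.07 and its untrypsinized levels 10.31, 10.35 and 10.30, with no array apart. From trypsinized to mock sorted arrays 0 of 15 passed, and limma's unadjusted p was under 0.05 for 2, both lower.

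Markers of the cell types that could carry these genes were measured beside them. Of 13 T cell markers with a row, 2 were called higher after trypsin, Lat and Cd8b1, with a list median of 1.11, and limma's unadjusted p was under 0.05 for all 13. The count was 0 with trypsinized replicate 1 or any 1 untrypsinized array dropped, 1 with trypsinized or mock sorted replicate 2 dropped, and 7 with mock sorted replicate 1 dropped. With both trypsinized replicate 1 and mock sorted replicate 1 left out, 7 were called. Of 15 B cell markers 0 passed, limma's unadjusted p was under 0.05 for 1 higher and 1 lower, and the list median was 0.73. The B cell marker Ms4a1 was at 8.90, 7.69 and 8.38 in untrypsinized replicates 1 to 3 and at 10.32, 8.53 and 8.75 in trypsinized ones, and it was named after its values were seen. Dendritic cell markers, of which 0 of 10 were called, had a median of 0.40, and limma's unadjusted p was under 0.05 for 6, all higher. Of 11 markers of natural killer and innate lymphoid cells 0 were called (median 0.28), as of 10 macrophage (-0.07), 8 luminal (0.07), 10 basal (-0.10) and 10 fibroblast markers (-0.27). In these lists limma's unadjusted p was under 0.05 for 4 higher and 1 lower natural killer and innate lymphoid, 1 higher and 3 lower macrophage, 3 higher and 1 lower luminal, 5 lower basal and 7 lower fibroblast markers. The part of each cell type in the levels of Ccr7, Cxcr5 and Ltb was not tested.

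Lymph node stroma and vessels were followed with lists of their own. Of 11 reticular and follicular stromal markers 0 passed after trypsin, limma's unadjusted p was under 0.05 for 1 higher and 5 lower, and the median was -0.05. Between mock sorted and untrypsinized arrays 3 were called lower, Vcam1, Cxcl12 and Pdgfra, at -0.98, -0.64 and -0.61 (SE 0.12, 0.07 and 0.11). Pdgfra, named after its values were seen, fell under the minimum fold with untrypsinized replicate 1, untrypsinized replicate 3 or mock sorted replicate 2 dropped. High endothelial venules, the vessels through which lymphocytes enter nodes, had 8 markers. After trypsin 0 were called, and limma's unadjusted p was under 0.05 for 3 higher and 3 lower. From trypsinized to mock sorted arrays 2 were called lower, Sele at -1.33 (SE 0.07) and Ackr1 at -0.95 (SE 0.07). Cd34 was also called lower against untrypsinized arrays. The list did not move as 1, since 3 of the 8 had higher means in mock sorted than untrypsinized arrays, none of them called. These were Glycam1 (13.16 against 12.35), Chst4 (7.76 against 7.23) and Fut7 (7.84 against 7.71). Of 9 lymphatic endothelial markers 2, 3 and 5 were called lower in the 3 comparisons, among them Nrp2 in each, whose change after trypsin fell under the minimum fold with untrypsinized replicate 3, trypsinized replicate 2 or trypsinized replicate 3 dropped. Flt4, the receptor of VEGF-C, lost its call from trypsinized to mock sorted arrays with mock sorted replicate 2 or 3, or trypsinized replicate 1 or 3, dropped. All 10 vascular endothelial markers were called lower from trypsinized to mock sorted arrays, with a median of -1.08, in the comparison in which Madcam1 fell. The summed intensity of these 10 markers was 29686 to 34224 in untrypsinized, 23057 to 23469 in trypsinized and 10242 to 12486 in mock sorted arrays.

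**Figure D3:**
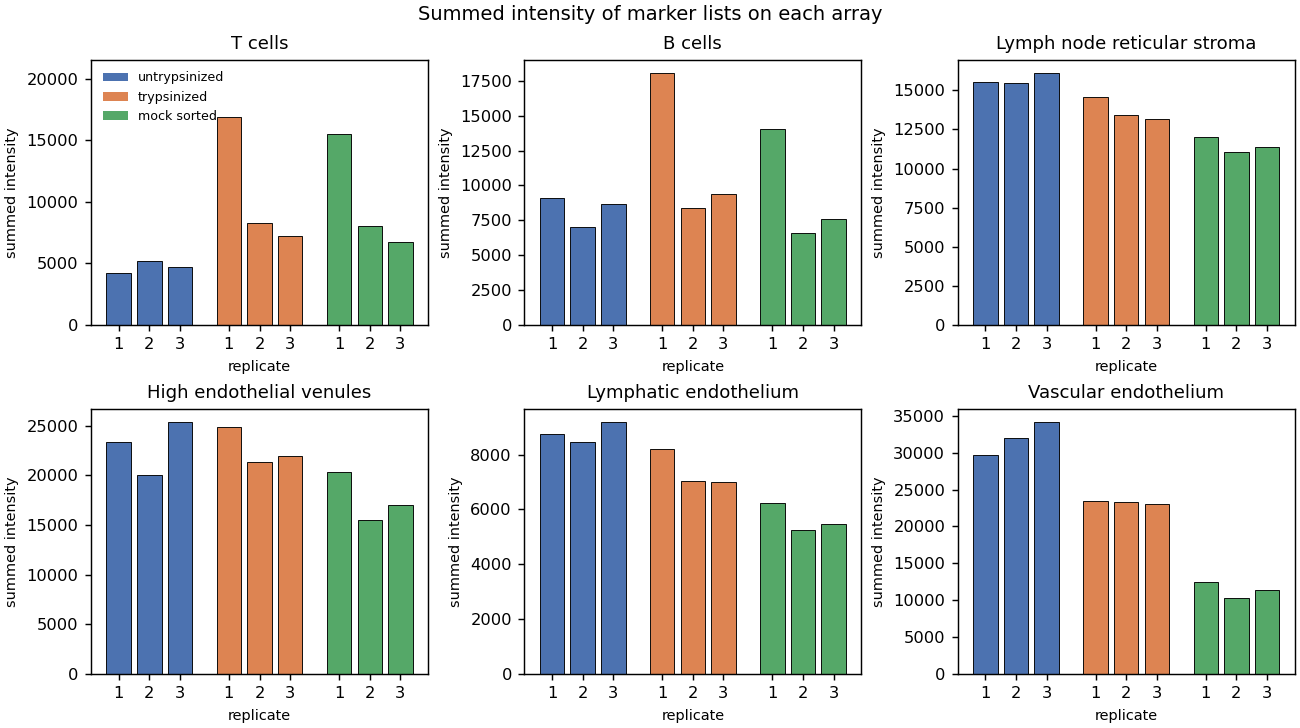
Summed linear intensity of 6 marker lists on each array, by preparation and replicate (bars start at 0). The T cell and B cell sums were highest in replicate 1 of the trypsinized and mock sorted arrays, and the vascular sum was lowest, at 10242 to 12486, in the mock sorted arrays.

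Replicate 1 was set beside replicates 2 and 3 within each preparation, as a description with no test. In trypsinized arrays replicate 1 exceeded the mean of the other replicates by 1.81 for Ccr7, 1.91 for Cxcr5 and 0.68 for Ltb on the lymphocyte side, and by 0.92 for Ccl19, 1.04 for Cxcl13 and 0.12 for Madcam1 on the stromal side. In mock sorted arrays the same differences were 1.77, 1.90 and 0.62, and 0.89, 1.22 and 0.37. In untrypsinized arrays they were 0.96, 1.37 and -0.12, and -0.04, 0.67 and -0.01, so that the receptors were higher in replicate 1 there while Ltb, Ccl19 and Madcam1 were not. The value of Cxcl13 there came from the low replicate 2, since replicates 1 and 3 were almost equal. Over all genes the median of this difference was 0.00 in trypsinized, -0.02 in mock sorted and -0.05 in untrypsinized arrays.

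Of the 7 genes 5 were at least 1.5-fold above the mean of replicates 2 and 3 in both trypsinized and mock sorted replicate 1, and 1.13% of all genes were. Those were Ccr7, Cxcr5, Ltb, Ccl19 and Cxcl13, and Madcam1 and Lta were not. Replicate 1 was the highest array in all 3 preparations for Ccr7, Cxcr5 and Cxcl13, and for 3.8% of all genes, with untrypsinized Cxcl13 almost equal in replicate 3. It was the highest trypsinized and the highest mock sorted array for 6 of the 7, all but Lta, and for 16.5% of all genes. Ccl19 and Cxcl13, the 2 chemokines read here as stromal, thus stood higher on the same 2 arrays as the lymphocyte receptors. The part of each cell type in the levels of Ccl19 and Cxcl13 was not tested.

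The wider lists split differently. T cell markers had a median replicate 1 difference of 1.21 in trypsinized and 1.21 in mock sorted arrays but -0.17 in untrypsinized ones, and B cell markers had 1.22, 1.15 and 0.39. At least 1.5-fold higher in trypsinized replicate 1 were 10 of 13 T cell and 13 of 15 B cell markers. Of the 14 homing genes 7 were that far up in trypsinized and 7 in mock sorted replicate 1, with medians of 0.58, 0.61 and 0.03 in the same order of preparations. Of the 15 lymphotoxin pathway genes 0 were, with medians of 0.12, 0.07 and -0.05. Dendritic cell markers had 0.38, 0.27 and -0.05 with 3 of 10. Reticular and follicular stromal markers had medians of 0.13, 0.08 and -0.05, with 1 of 11 that far up in trypsinized replicate 1. That list had 13 genes, of which Ccl21a and Enpp2 had no row. It shares Pdgfra with the fibroblast list and so does not single out nodal stroma. Fibroblast markers had 0.15, 0.12 and 0.07 with 0 of 10. High endothelial venule markers had 0.13, 0.24 and -0.05 with 1 of 8, and lymphatic endothelial markers had 0.20, 0.24 and -0.04 with 1 of 9. Macrophage markers had 0.17, 0.18 and 0.07 with 1 of 10. Luminal markers had -0.02, 0.00 and 0.02 with 0 of 8.

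The single stromal or vascular markers at least 1.5-fold up in trypsinized replicate 1 were named after their values were seen. Bst1, an enzyme also called CD157 that is carried by nodal stroma and by leukocytes, was at 9.82, 9.13 and 9.20 in trypsinized replicates 1 to 3. Chst4, a sulfotransferase of high endothelial venules, was at 8.27, 7.50 and 7.85. Lyve1, a hyaluronan receptor of lymphatic vessels and some macrophages, was at 10.76, 10.01 and 9.95. Glycam1, which was not that far up, a mucin of high endothelial venules that is also a milk protein of mammary epithelium, was at 13.39, 12.93 and 13.06 in the trypsinized arrays, and at 12.71, 11.51 and 12.83 in the untrypsinized arrays, where replicate 2 was the lowest as it was for Cxcl13.

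**Figure D4:**
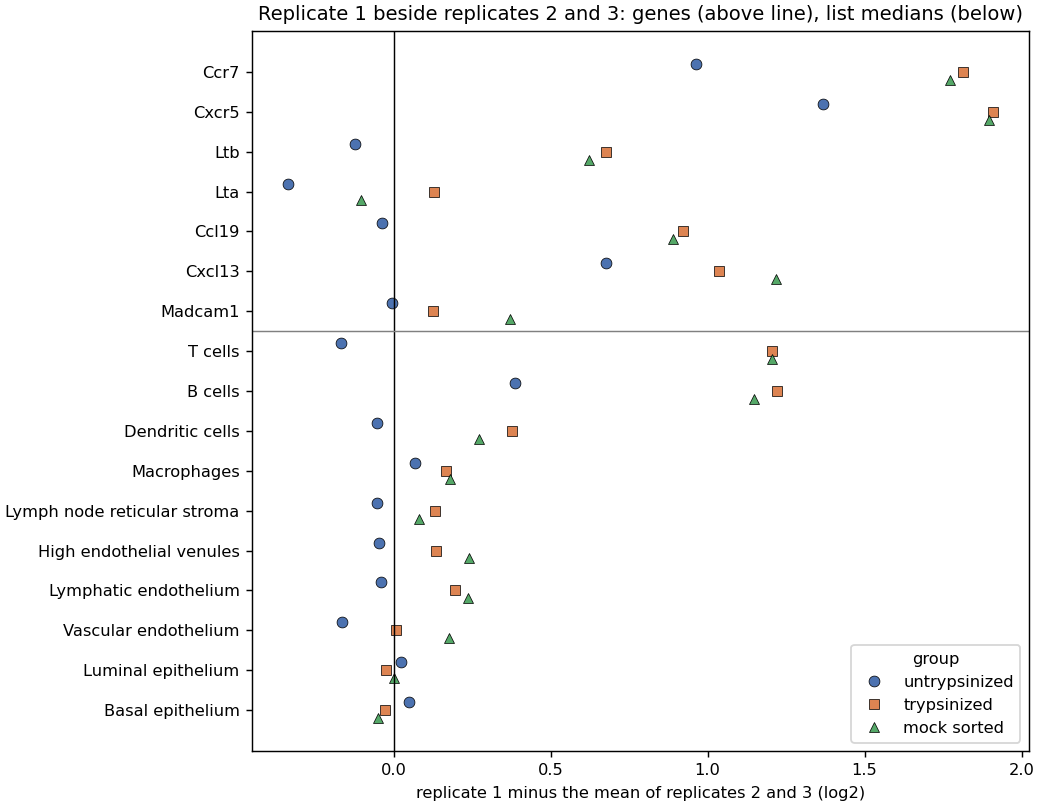
Replicate 1 minus the mean of replicates 2 and 3 within each preparation (horizontal axis, log2), for the 7 genes above the line and as the median of each marker list below it. The receptors reach 1.77 to 1.91 in trypsinized and mock sorted arrays, and the stromal and endothelial lists stay at or under 0.24.

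With all 3 arrays numbered 1 left out, the trypsinized minus untrypsinized differences were 0.88 for Ccr7 (SE 0.53, limma adjusted p = 0.318), 0.83 for Cxcr5 (SE 0.22, limma adjusted p = 0.0727) and 0.50 for Ltb (SE 0.10, limma adjusted p = 0.0439, under the minimum fold). Those of Ccl19 and Cxcl13 were -0.20 and 0.12 (limma adjusted p = 0.384 and 0.882). In this fit of 6 arrays Ccl19 was called lower in mock sorted than untrypsinized arrays at -0.61 (SE 0.14, limma adjusted p = 0.0280), and Madcam1 at -1.07 (SE 0.12, limma adjusted p = 0.00321). The Cxcr5 value compares levels that all lie below the 95th percentile of the olfactory receptor genes. Whether the gene was above background on these arrays could not be told, so the value is not read as a change.

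The genes with the most alike pattern over the 9 arrays were sought by Pearson r among 877 genes whose level spanned at least 1 on the log2 scale. The arrays fall into groups, so r is a description of likeness only. Nearest to Ccr7 were Gpr171 (r = 0.994), the activation marker Cd69 (0.989) and the T cell co-stimulator Icos (0.984). Nearest to Cxcr5 were Slamf7 (0.982), the desmosomal cadherin Dsc3 (0.979) and the B cell gene Fcrla (0.978). Nearest to Ltb were Itgal (0.985), Arhgap45 (0.983) and the cytotoxic granule gene Nkg7 (0.983).

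For the genes read here as stromal other genes came up. None of those nearest to Ccl19 or Cxcl13 was on the reticular and follicular stromal list, and the cell source of these chemokines was not tested. Nearest to Ccl19 were Pld4 (0.984), Tlr7 (0.960) and Grap (0.954), and nearest to Cxcl13 were Lyz1 (0.941), P2ry13 (0.936) and Lyz2 (0.889), of which the lysozyme genes are known from macrophages. Nearest to Madcam1 were Gpr182 (0.991), Prcp (0.991) and Flt4 (0.989), of which Gpr182 and Flt4 are known from lymphatic and other endothelium. Among the 7 genes themselves r was 0.944 between Ccr7 and Cxcr5, 0.784 between Ccl19 and Cxcl13, 0.467 between Ccr7 and its ligand gene Ccl19, and 0.687 between Cxcr5 and its ligand gene Cxcl13. Madcam1 and Ccr7 had r = -0.21. Lta spanned too little for this search.

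**Figure D5:**
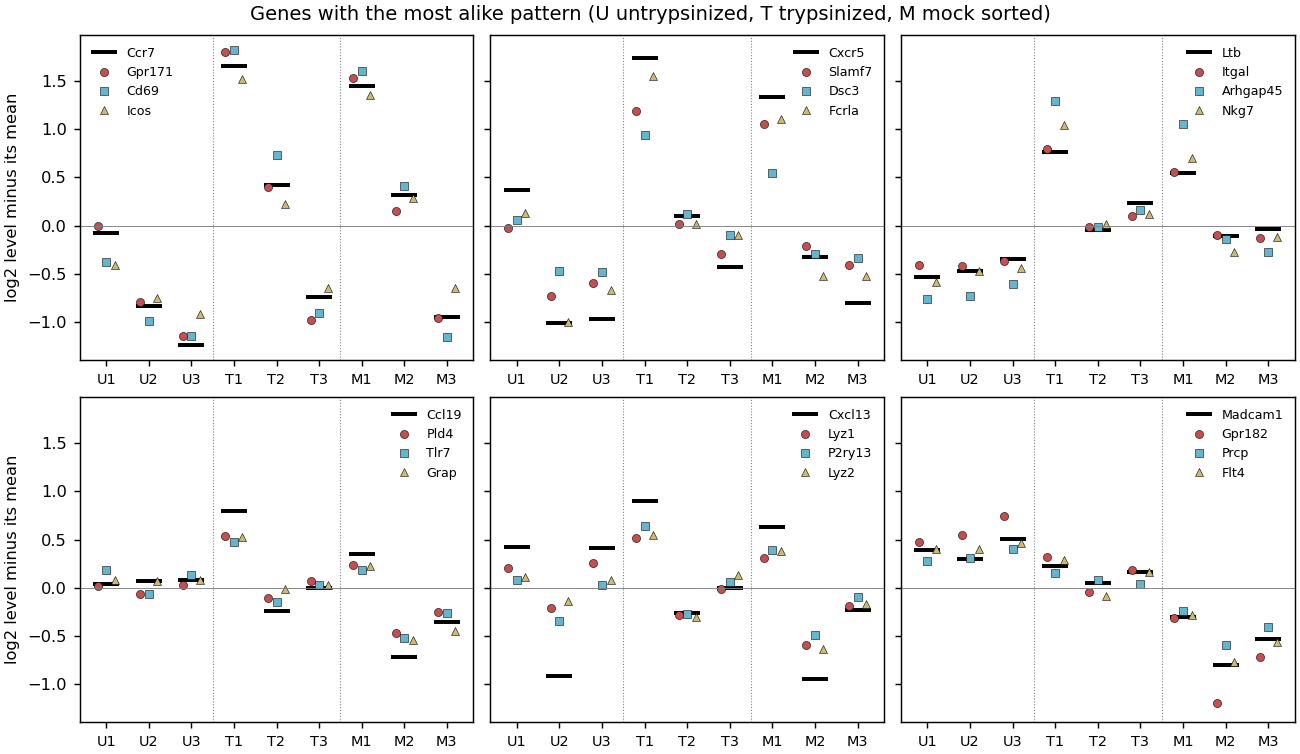
Level of 6 genes on each array minus the gene's own mean over the 9 arrays (black bars), with the 3 genes of highest Pearson r (coloured symbols). U, T and M stand for untrypsinized, trypsinized and mock sorted arrays with their replicate number, and the genes nearest to Ccr7, Cxcr5 and Ltb peak at T1 and M1 while those nearest to Madcam1 are lowest in the M arrays.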

How the data were processed

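Per the labels' protocols, total RNA was extracted and labelled with biotin for Affymetrix whole-transcript arrays. The authors deposited 1 intensity per row and array on a linear scale for 35512 rows. No source used here gives the background correction, probe summary, scaling or build, and the submitters' processing notes name limma. Rows were named with the platform annotation, updated by gene number with RefSeq (GRCm38.p6): 21789 had 1 symbol, 1621 several, and 12102 were not listed. The highest-mean row stood for each of 19938 genes.

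For log2(intensity + 1) of all 9 arrays, limma 3.58.1 in R 4.3.3 fitted the 3 group means jointly, with no term for the replicate number. The thresholds come from the series' design text, which does not say whether p was adjusted. The 7 genes, the 14 gene lists and the tests were chosen with earlier results of these data known. Genes named from lists were up to 4 per list with the smallest p after trypsin, with exceptions stated. The model was tested on simulated data.

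Same-numbered deviations from group means of trypsinized with mock sorted arrays correlated at 0.53, 0.29 and 0.29 for numbers 1 to 3. Unlike numbers gave -0.36 to -0.31 where replicate 1 took part, and 0.13 and 0.16 between replicates 2 and 3. The numbers were taken to pair these arrays, as judged from the values only, and less clearly for replicates 2 and 3. Same-numbered deviations correlated at 0.11, 0.04 and -0.04 between untrypsinized and trypsinized arrays. Between untrypsinized and mock sorted arrays they correlated at 0.32, 0.18 and 0.06, beside -0.28 to 0.14 for unlike numbers. Whether the numbers also pair the untrypsinized arrays with the others could not be told from the values. Alternatives covered threshold, pseudocount, scaling, dim genes, row choice, variance model, array weights, arrays fitted, replicate block and left-out arrays. A blocked fit of the 6 trypsinized and mock sorted arrays, and leaving out replicate 1 of both groups together, were chosen after seeing the data.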

Additional observations from a re-analysis of the deposited data

How the results depend on the processing

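The number of arrays limits the precision, and without a detection call dim levels cannot be told from background. Over 25 or 26 alternatives per comparison, the fall of Madcam1 from untrypsinized to mock sorted arrays kept its call, and the causes of the following shifts were not tested. After trypsin, 0 of the 7 genes were called with quantile scaling of all rows, with quantile scaling of the tested genes and with a robust variance trend (Ltb adjusted p = 0.0674, 0.0548 and 0.0535). With a replicate block, 3 were called after trypsin, Ccr7 (adjusted p = 0.0184), Cxcr5 (0.00912) and Ltb (0.0240), where 1.9% of all genes were called, and 4 between mock sorted and untrypsinized arrays, the same 3 and Madcam1, where 4.78% were. In those 2 comparisons the values do not settle whether the numbers pair the arrays. The block over the 6 trypsinized and mock sorted arrays left Madcam1 as the 1 call (adjusted p = 0.0257). Between mock sorted and untrypsinized arrays 2 genes were called with an unadjusted p or with the arrays of both groups only.

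Leaving out arrays gave 0 to 1 genes called after trypsin, 0 to 1 from trypsinized to mock sorted arrays and 1 to 2 between mock sorted and untrypsinized arrays. Over all genes it gave 169 to 343, 124 to 281 and 852 to 957 calls, beside 292, 238 and 892, and over the list genes 2 to 19, 9 to 20 and 26 to 38, beside 8, 16 and 31. With no minimum fold 5055, 931 and 7777 genes and 47, 28 and 69 list genes were called. After trypsin 24 list genes were called with an unadjusted p, 18 with a common array median and 30 with the block. The split after trypsin was 106 higher and 186 lower, but 57 and 279 with quantile scaling of all rows, 55 and 376 with a common median and 80 and 227 with quantile scaling of the tested genes. Between mock sorted and untrypsinized arrays it was 215 and 677, but 116 and 861, 92 and 1028, and 179 and 703. A common median moved the median of all genes from 0.04 to -0.09 and from 0.05 to -0.09 in these comparisons.

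Signs turned for differences that were not called. For Lta after trypsin the values were -0.0706, -0.0625 and -0.0130 with quantile scaling of all rows, a common median and quantile scaling of the tested genes, and -0.0969, -0.0871 and -0.00418 between mock sorted and untrypsinized arrays. From trypsinized to mock sorted arrays Lta was at 0.00882 with quantile scaling of the tested genes and at 0.0103 with array weights. Ccl19 after trypsin was at -0.00996 with a common median. Leaving out arrays gave -0.0837 to 0.211 for Lta, -0.195 to 0.342 for Ccl19 and -0.203 to 0.565 for Cxcl13 after trypsin. From trypsinized to mock sorted arrays it gave -0.766 to 0.440 for Ccr7, -1.034 to 0.234 for Cxcr5, -0.388 to 0.0451 for Ltb and -0.0478 to 0.0677 for Lta. Dropping a single trypsinized or mock sorted array breaks a same-numbered pair. The same-numbered differences were all negative for Ccr7 (-0.21 to -0.11), Cxcr5 (-0.42 to -0.38) and Ltb (-0.26 to -0.06). Between mock sorted and untrypsinized arrays leaving out arrays gave -0.0264 to 1.061 for Cxcr5, -0.0502 to 0.173 for Lta and -0.601 to 0.223 for Cxcl13.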
